A study of Mus musculus with 9 samples.

Results

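Axon guidance ligands and receptors were followed in mouse hippocampus on 9 two-colour arrays, each of which set the RNA of one mouse against that of another. Members were found by gene symbol, as annotated or as updated to the current name: the numbered semaphorins (Sema), plexins (Plxn), neuropilins (Nrp1, Nrp2), ephrins (Efna, Efnb), Eph receptors (Epha, Ephb), Slit1 to Slit3, Robo1 to Robo3, netrins (Ntn1, Ntn4, Ntng1, Ntng2), Dcc and the Unc5 family. The rule found 66 genes on 89 probes, of 16637 genes on the 21020 probes that carry a single symbol. Of these, 33 encode ligands and 31 encode receptors. The other 2, Unc50 and Unc5cl, share a prefix with the netrin receptors, are placed in neither class and are shown in the map of all members by array. Nrp2 was found through its older symbol Npn2. Sema3g, Plxnd1, Ntng2 and Unc5c are not analysed here.

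The mice were female, 8 in number, with 2 in each of 4 groups, and each gave the RNA of one hippocampus. The 3xTG mice, aged 3 or 12 months, are labelled B6;129Psen1tm1Mpm Tg (APPSwe,tauP201L) 1Lfa, that is, they carry a mutant knock-in allele of presenilin 1 together with transgenes for mutant human amyloid precursor protein and tau. In this line the transgenes are driven by a Thy1 regulatory cassette, which is active mainly in neurons. The WT mice, aged 12 or 3 months, are labelled 129SV with C57BL6. The 3 comparisons of 3 arrays each were: WT at 12 over WT at 3 months (ageing), 3xTG over WT at 3 months, and 3xTG over WT at 12 months. The WT mice of 3 months served as the reference in both the ageing and the 3-month genotype comparison, and the WT mice of 12 months were the numerator of the ageing ratio and the reference at 12 months. No array compared 3xTG mice of different ages directly.

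Axon guidance molecules steer growing axons by attraction or repulsion, and many remain expressed in the adult hippocampus, where they act on dendritic spines and synapses. Semaphorins signal through plexins, and the secreted class 3 proteins generally need a neuropilin as co-receptor. Ephrin-A ligands are held on the membrane by a lipid anchor and mainly bind EphA receptors, whereas ephrin-B ligands cross the membrane and mainly bind EphB receptors. Slits are secreted ligands of the Robo receptors, and netrins signal through Dcc and the Unc5 receptors. The mossy fibre projection from dentate granule cells to CA3 is a known site of semaphorin, plexin and Eph signalling in this tissue.

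Values are deposited log2 ratios, centred on the median of each array and averaged over the probes of a gene, so 0 means the same ratio as the median listed probe. Each array listed 13683 to 16191 of 29922 probes, and its median before centring ran from -1.71 to 2.33. No deposited value was nearer to 0 than 0.501, so ratios close to 1 are missing from the table, and after centring this gap lay at a different place on each array, from -2.84 to -1.84 on the second ageing array and from 1.21 to 2.21 on the third array of the 12-month genotype comparison. Between 33 and 46 members were listed per array, 3 members were listed on all 9, and the median member was listed on 5.0 arrays, as was the median gene. Several probes existed for 20 members. Where at least 2 of them were listed on an array, they had one sign in 19 of 40 cases (47.5%), against 50.8% over all genes, so probes of one gene often disagreed. Ratios between groups carry no expression level, so the hippocampal identity of the tissue could not be checked against its markers. In RNA from whole tissue, fewer cells of a type and less RNA per cell cannot be told apart. App, whose human transgene 3xTG mice carry, lay at 2.08, 3.99 and 3.64 in 3xTG over WT at 3 months and at 2.02, 2.01 and 2.36 at 12 months, above the array median on all 6 arrays.

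**Figure D1:**
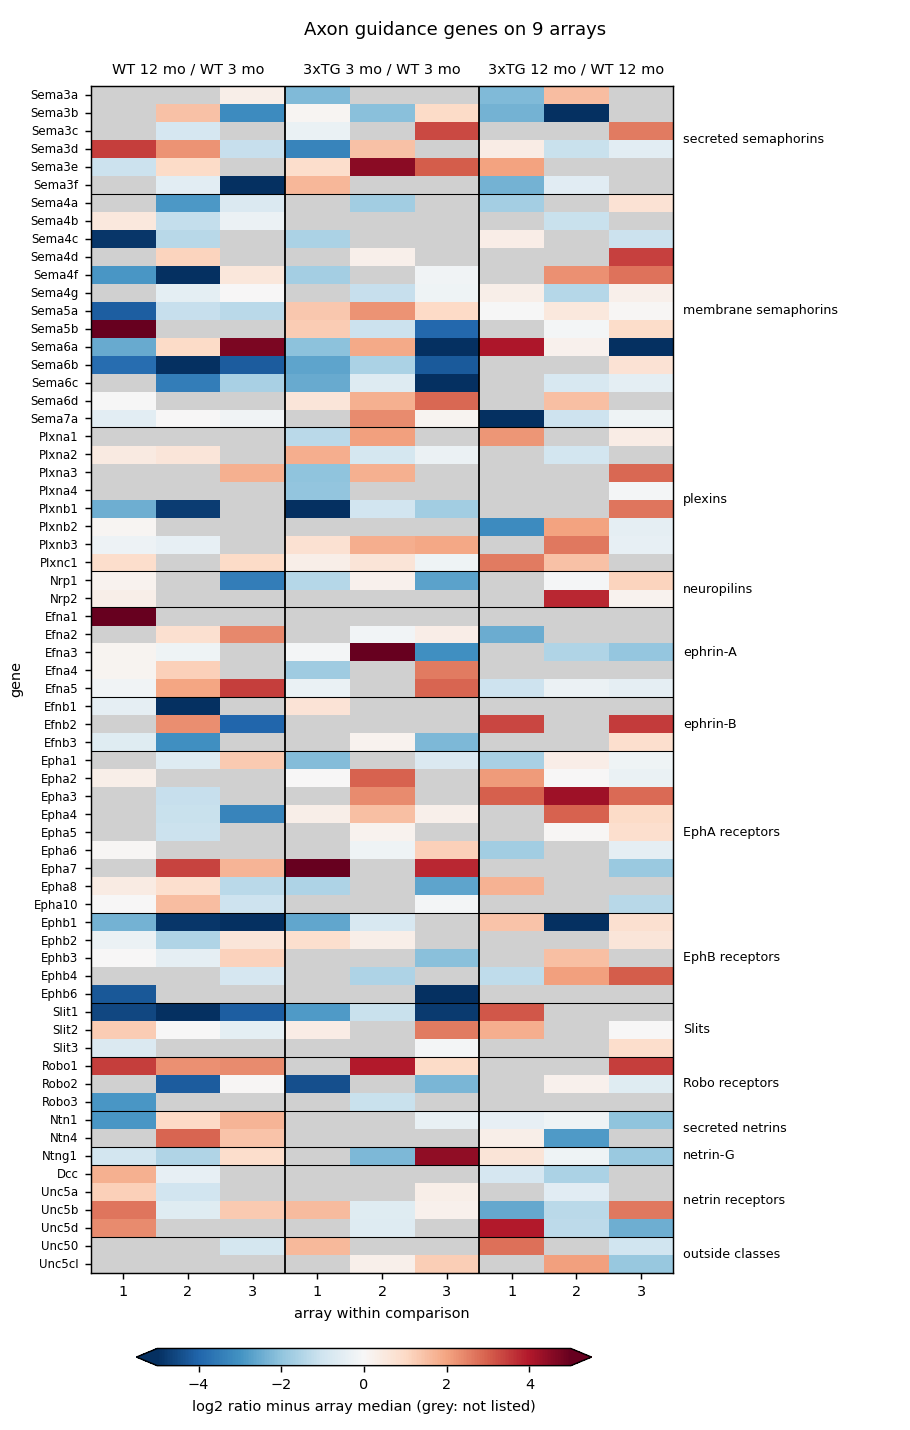
Log2 ratio minus array median of each of the 66 genes (rows, grouped by class) on each of the 9 arrays (columns, 3 per comparison), with grey where no value is listed. Slit1 and Sema6b are blue on all 3 ageing arrays and all 3 arrays of 3xTG over WT at 3 months, Robo1 is red on all 3 ageing arrays, and Epha3 is red on all 3 arrays of 3xTG over WT at 12 months.

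Ageing was addressed by setting WT hippocampi of 12 months against those of 3 months. Membrane semaphorins and ephrin-B ligands lay low, and Robo1 lay high. Of 19 members listed on all 3 ageing arrays, 1 was above the array median on every array (5.3%), against 15.6% of all genes listed that often, and 4 were below it on every array (21.1%), against 23.3%. The one above was Robo1, and the 4 below were Slit1, Sema6b, Ephb1 and Sema5a. All 5 kept these signs of the mean without centring and when centred on abundant transcripts.

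Among ligands listed on at least 2 ageing arrays, 7 of 26 had a mean above the array median, and their median was -0.41. Among receptors it was 10 of 18, with a median of 0.15. Over all genes 48.4% lay above, with a median of -0.06. The ligand median was below that of all genes, and the receptor median above it, also without centring, where the medians were 1.49 for ligands, 2.04 for receptors and 1.85 for all genes. Centred on abundant transcripts, the medians were 0.19, 0.68 and 0.55 in that order. These medians describe the classes and were not tested.

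The 3-month genotype comparison set 3xTG against WT mice of the younger age. Members lay on both sides of the array median about as often as other genes. Of 17 members listed on all 3 arrays, 5 were above the median on each (29.4%, against 28.4% of all genes) and 4 were below it (23.5%, against 19.8%). Those above were Sema3e, Sema6d, Sema5a, Plxnb3 and Epha4, and those below were Sema6c, Plxnb1, Slit1 and Sema6b. All kept the sign of the mean under both other centrings, except that Epha4 came to -0.05 when centred on abundant transcripts. Means were above 0 for 11 of 21 ligands, with a median of 0.09, and for 11 of 18 receptors, with a median of 0.30, against 49.4% and -0.02 over all genes. The ligand median was below that of all genes without centring (0.16 against 0.26) and when centred on abundant transcripts (-1.07 against -0.79), while that of receptors stayed above it.

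At 12 months, in 3xTG over WT, the ligand median lay below that of all genes. A mean above 0 was found for 5 of 20 ligands, with a median of -0.45, and for 11 of 18 receptors, with a median of 0.50, against 57.2% and 0.31 over all genes. Of 16 members listed on all 3 arrays, only Epha3 was above the median on each (6.2%, against 30.4% of all genes), and Sema7a, Ntn1 and Efna5 were below it (18.8%, against 16.3%). These 4 kept the sign of the mean under both other centrings. The ligand median also stayed below that of all genes, at -1.64 against -0.85 without centring and at -2.14 against -1.36 when centred on abundant transcripts.

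**Figure D2:**
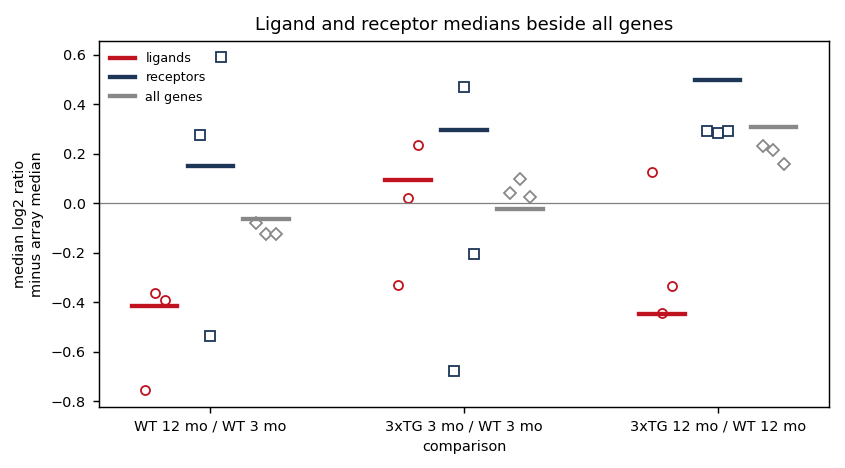
Median over ligands (red), receptors (blue) and all genes (grey) of the log2 ratio minus array median, for genes listed on at least 2 arrays of a comparison. Bars are medians of gene means, and symbols are medians on single arrays. The ligand bar lies at -0.41 in ageing and -0.45 in 3xTG over WT at 12 months, below the bar of all genes there, and single arrays scatter widely around the bars.

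Robo1, Sema6b, Plxnb1 and Epha3 were among the genes with one sign on all 3 arrays of a comparison, and their promoters are shown to give the sequence around the start of each. The sequences are those of RefSeq on GRCm38.p6, from 250 bases before to 50 bases after the annotated start, 5′ to 3′ on the strand of the gene. Capitals mark GC boxes, the hexamer GGGCGG or its reverse complement CCGCCC.
Robo1: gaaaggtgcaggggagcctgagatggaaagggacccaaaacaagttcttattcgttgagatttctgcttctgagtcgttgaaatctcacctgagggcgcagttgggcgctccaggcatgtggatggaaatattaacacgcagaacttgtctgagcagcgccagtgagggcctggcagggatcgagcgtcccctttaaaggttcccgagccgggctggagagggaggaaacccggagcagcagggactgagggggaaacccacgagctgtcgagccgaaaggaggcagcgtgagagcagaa
Epha3: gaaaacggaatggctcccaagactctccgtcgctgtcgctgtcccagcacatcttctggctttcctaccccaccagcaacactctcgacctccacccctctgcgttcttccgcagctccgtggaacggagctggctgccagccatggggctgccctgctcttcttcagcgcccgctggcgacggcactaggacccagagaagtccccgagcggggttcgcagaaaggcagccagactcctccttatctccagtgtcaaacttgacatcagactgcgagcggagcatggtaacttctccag
Sema6b: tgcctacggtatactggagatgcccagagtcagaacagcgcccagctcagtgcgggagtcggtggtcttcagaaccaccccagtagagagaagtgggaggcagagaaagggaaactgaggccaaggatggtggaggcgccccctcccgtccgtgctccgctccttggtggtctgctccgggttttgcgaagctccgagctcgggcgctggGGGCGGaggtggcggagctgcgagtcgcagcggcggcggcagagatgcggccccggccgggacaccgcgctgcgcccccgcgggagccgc
Plxnb1: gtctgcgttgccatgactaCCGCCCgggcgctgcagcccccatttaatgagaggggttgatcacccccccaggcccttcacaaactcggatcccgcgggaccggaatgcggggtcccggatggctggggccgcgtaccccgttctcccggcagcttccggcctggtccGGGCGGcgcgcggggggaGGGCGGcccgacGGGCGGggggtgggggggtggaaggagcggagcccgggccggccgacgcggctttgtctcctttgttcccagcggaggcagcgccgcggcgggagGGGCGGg
The Robo1 promoter lies at chr16:72662899-72663198 on the plus strand, with 57% G and C and 0 GC boxes. That of Epha3 lies at chr16:63864126-63864425 on the minus strand, with 60.7% G and C and 0 GC boxes. Of the annotated starts of Sema6b, the one shown has 1 GC box and 69.0% G and C at chr17:56140294-56140593 on the minus strand, chosen as the one with more CpG sites (29, against 6 at the start not shown), and Plxnb1 has 5 and 74.7% at chr9:109095186-109095485 on the plus strand. Promoters were matched for 56 of the 66 genes, with 72 starts. A GC box was in 53 of these (73.6%), against 35.7% of all 32851 promoters in the table, and the median share of G and C was 64.2% against 52.7%. A match describes the letters in this window and was not related to the ratios.

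Secreted semaphorins are repellents of the class 3 type that act mainly through neuropilins and A-type plexins. Sema3e differs in that it binds Plxnd1 directly. Sema3e, on chromosome 5, lay at 0.87, 4.51 and 3.01 in 3xTG over WT at 3 months (mean 2.80 ± 1.83, SD, n = 3 arrays). All 3 arrays were above the median, though by very different amounts. In ageing it lay at -1.08 and 0.95 on the 2 arrays that list it, one on either side. At 12 months it was listed on a single array of 3xTG over WT, at 2.00. Sema3d lay at 3.46, 2.25 and -1.14 in ageing, at -3.30 and 1.47 in 3xTG over WT at 3 months, and at 0.35, -1.13 and -0.54 at 12 months. It had both signs in each comparison. Sema3b lay at 1.48 and -3.15 in ageing, at 0.10, -2.09 and 0.94 in 3xTG over WT at 3 months, and at -2.38 and -5.64 at 12 months. Only at 12 months did its listed arrays lie on one side, each through a different probe. Sema3f was also low on both its 12-month arrays, at -2.38 and -0.58. Sema3a and Sema3c were listed on 4 arrays each, with values from -2.22 to 3.29. Of the 4 secreted semaphorins listed on at least 2 arrays at 12 months, 0 had a mean above the array median in 3xTG over WT, against 57.2% of all genes. Sema3c and Sema3e, each listed on a single array there, were above it, at 2.58 and 2.00.

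Membrane semaphorins include the class 4 proteins, the class 5 proteins with thrombospondin repeats, the class 6 proteins that bind A-type plexins, and the lipid-anchored Sema7a. In ageing 1 of 10 listed on at least 2 arrays had a mean above the array median, against 48.4% of all genes. The class median was -2.0, against -0.06 over all genes. Without centring it was 0.02 against 1.85, and centred on abundant transcripts -1.35 against 0.55, so the class median was below that of all genes under each centring. On single arrays it was -2.91, -1.30 and -0.28, against -0.08, -0.13 and -0.12 over all genes. Members listed on a single ageing array, outside this count, were Sema5b at 5.46, Sema4d at 1.10 and Sema6d at -0.01. Sema6b, on chromosome 17, lay at -3.80, -5.83 and -4.18 (mean -4.60 ± 1.08, SD, n = 3 arrays). These are among the lowest member values in ageing, and all 3 are beyond the gap of unlisted values. At 3 months, in 3xTG over WT, Sema6b lay at -2.65, -1.57 and -4.18, again low on every array, but both comparisons divide by RNA of the same WT mice of 3 months. At 12 months its only listed value in 3xTG over WT was 0.72, and it was -0.99 without centring.

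Sema6c lay at -3.45 and -1.61 in ageing, at -2.53, -0.63 and -6.57 in 3xTG over WT at 3 months, and at -0.79 and -0.50 at 12 months. It was below the array median wherever it was listed, the 12-month values coming from a probe that gave -0.26 and -0.04 elsewhere, and the 3-month arrays differed widely. The ageing and 3-month values divide by RNA of the same WT mice of 3 months. Sema6d, by contrast, lay at 0.62, 1.78 and 2.88 in 3xTG over WT at 3 months, and was listed once in ageing at -0.01 and once at 12 months at 1.49. Sema6a lay at -2.53, 0.94 and 4.70 in ageing, at -2.06, 1.89 and -6.09 in 3xTG over WT at 3 months, and at 4.04, 0.20 and -5.08 at 12 months. Its values crossed 0 in every comparison, and its 3 probes are averaged wherever more than 1 was listed. Most arrays listed a single probe, not always the same. At 12 months 4.04 and -5.08 came from different probes. At 3 months -6.09 came from another probe than -2.06 and 1.89.

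Sema5a, which can attract or repel depending on the matrix around it, lay at -4.13, -1.15 and -1.34 in ageing (mean -2.21 ± 1.67, SD, n = 3 arrays). It lay at 1.34, 2.26 and 0.99 in 3xTG over WT at 3 months (1.53 ± 0.66) and at -0.03, 0.54 and 0.06 at 12 months. These means join 2 probes that differ. The first ageing value averages -7.48 and -0.77. The only probe listed at 3 months was also above the median at 12 months, at 1.46 and 1.72, where the other lay at -1.52 and -0.65 on the same arrays. Without centring the ageing mean was -0.30. Sema5b was listed once in ageing, at 5.46, and lay at 1.29, -1.08 and -3.94 in 3xTG over WT at 3 months and at -0.09 and 0.91 at 12 months.

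Sema7a, which acts through Plxnc1 and integrins, lay at -5.04, -1.02 and -0.23 in 3xTG over WT at 12 months. The first array holds most of that mean of -2.10 ± 2.58 (SD, n = 3 arrays). In ageing Sema7a lay at -0.53, 0.02 and -0.19, and in 3xTG over WT at 3 months at 2.38 and 0.14. The value of 2.38 averages probes at 0.17 and 4.59, and the higher of these probes was not listed at 12 months. Sema4f lay at -2.91, -6.48 and 0.56 in ageing, at -1.72 and -0.16 in 3xTG over WT at 3 months, and at 2.27 and 2.73 at 12 months. Both listed arrays were high at 12 months and both were low at 3 months. Sema4g stayed within -1.44 and 0.28 on the arrays that list it. Sema4c was low on both its ageing arrays, at -4.85 and -1.40, and so was Sema4a, at -2.86 and -0.73. Sema4b and Sema4d had values from -1.19 to 3.43.

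Plexins are the signalling receptors of semaphorins, and Plxnb1 is the receptor of Sema4d. Plxnb1, on chromosome 9, lay at -6.66, -0.95 and -1.76 in 3xTG over WT at 3 months (mean -3.12 ± 3.09, SD, n = 3 arrays). All 3 were below the median, the first by far the most. In ageing it lay at -2.46 and -4.76, also low on both arrays, against the same WT mice of 3 months. Its single 12-month value in 3xTG over WT was 2.67. Plxnb3 lay at 0.77, 1.84 and 1.94 in 3xTG over WT at 3 months, at -0.26 and -0.42 in ageing, and at 2.63 and -0.41 at 12 months. It was above the median on each array at 3 months alone. The mean of its 12-month arrays was 1.11, and -0.18 without centring. Plxnc1 lay at 0.88 and 0.95 in ageing, at 0.29, 0.66 and -0.21 in 3xTG over WT at 3 months, and at 2.59 and 1.46 at 12 months. The A-type plexins and Plxnb2 had values from -3.16 to 2.88.

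Neuropilins bind class 3 semaphorins and also vascular endothelial growth factor. Nrp1 lay at 0.16 and -3.46 in ageing, at -1.43, 0.21 and -2.69 in 3xTG over WT at 3 months, and at -0.05 and 1.13 at 12 months. It had both signs in every comparison. Nrp2 was listed on a single ageing array, at 0.30, and on 2 arrays of 3xTG over WT at 12 months, at 3.76 and 0.20.

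Ephrin-A ligands did not keep to one side of the array median. In 3xTG over WT at 3 months each of the 4 listed on at least 2 arrays had values on both sides of the array median, and the class median of 0.59 came to 0.05 when centred on abundant transcripts. At 12 months 0 of 2 had a mean above the median, against 57.2% of all genes, and in ageing it was 3 of 4, against 48.4%. Efna5, a repellent cue in topographic mapping, lay at -1.03, -0.31 and -0.44 in 3xTG over WT at 12 months (mean -0.59 ± 0.39, SD, n = 3 arrays). The 3 arrays were close together and all a little below the median, though -0.31 came from another probe than -1.03 and -0.44. In ageing Efna5 lay at -0.17, 1.97 and 3.45, and in 3xTG over WT at 3 months at -0.34 and 2.93. Efna3, which is anchored in the same way, lay at 0.13 and -0.23 in ageing, at -0.11, 5.48 and -3.05 in 3xTG over WT at 3 months, and at -1.52 and -1.95 at 12 months. Its 3-month arrays differed in sign and by a wide margin. Efna2 and Efna4 lay between -2.47 and 2.60, and Efna1 was listed on a single array, in ageing, at 5.17.

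Ephrin-B ligands signal in both directions, into the cell that carries the Eph receptor and into their own. In ageing 0 of 3 had a mean above the array median, against 48.4% of all genes. The class median was -1.84, against -0.06 over all genes. Without centring it was 0.04, where all genes were at 1.85. Efnb1 lay at -0.46 and -5.13 and Efnb3 at -0.60 and -3.08, low on both arrays each. Efnb2 differed, at 2.32 and -3.96 in ageing and at 3.34 and 3.50 in 3xTG over WT at 12 months. Those 12-month values are nearly equal and come from different 3xTG mice over the same WT mouse.

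EphA receptors are receptor tyrosine kinases that bind ephrin-A ligands. Epha3, on chromosome 16, lay at 3.00, 4.23 and 2.84 in 3xTG over WT at 12 months (mean 3.36 ± 0.76, SD, n = 3 arrays). All 3 arrays were high, and the spread was small beside the mean. The mean was 2.21 without centring and 1.67 centred on abundant transcripts. Epha3 was listed once in 3xTG over WT at 3 months, at 2.37, and once in ageing, at -1.17. Epha4, which limits spine growth in response to astrocytic ephrin-A3, lay at -1.13 and -3.31 in ageing, at 0.28, 1.5 and 0.27 in 3xTG over WT at 3 months, and at 2.94 and 0.95 at 12 months. It was below the median on both ageing arrays and above it on each genotype array that lists it. The WT mice of 12 months are the numerator in ageing and the divisor at 12 months, so these signs are not independent. The ageing mean was -2.22, but -0.08 without centring. Epha7 lay at 6.67 and 3.76 in 3xTG over WT at 3 months, the highest mean of any member listed on at least 2 arrays of a comparison, and at 3.37 and 1.72 in ageing. Both comparisons divide by RNA of the same WT mice of 3 months. At 12 months the only listed value of Epha7 was -1.88. Epha1 lay at -0.64 and 1.30 in ageing, at -2.17 and -0.71 in 3xTG over WT at 3 months, and at -1.63, 0.35 and -0.21 at 12 months, on both sides in all but the 3-month comparison. Epha2, Epha5, Epha6, Epha8 and Epha10 lay between -2.64 and 2.94.

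EphB receptors bind ephrin-B ligands and cluster NMDA receptors at excitatory synapses. Ephb1, on chromosome 9, lay at -2.35, -4.86 and -6.20 in ageing (mean -4.47 ± 1.96, SD, n = 3 arrays). All 3 were well below the median, and the mean was -2.57 without centring. It lay at -2.59 and -0.81 in 3xTG over WT at 3 months and at 1.41, -5.52 and 0.81 at 12 months, where the second array stands far from the other 2. Ephb2 and Ephb3 lay between -2.11 and 1.51. Ephb4 lay at -1.26, 2.05 and 3.05 in 3xTG over WT at 12 months. Ephb6 was listed on a single ageing array, at -4.25, and a single 3-month genotype array, at -5.0.

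Slits repel axons through Robo receptors. Slit1, on chromosome 19, lay at -4.55, -5.46 and -4.14 in ageing (mean -4.72 ± 0.68, SD, n = 3 arrays). This was the lowest mean of any member in ageing, and its 3 arrays were close together. Over the same WT mice of 3 months, 3xTG mice of that age gave Slit1 values of -2.85, -1.12 and -4.79 (-2.92 ± 1.84), low on every array. At 12 months it was listed on array 1 alone, at 3.09. Slit2 lay at 1.26, 0.04 and -0.50 in ageing, at 0.37 and 2.60 in 3xTG over WT at 3 months, and at 1.83 and 0.01 at 12 months. The last of these averages probes at -2.33 and 2.35. Slit3 was listed on 3 arrays, between -0.74 and 0.88.

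Robo1, on chromosome 16, lay at 3.48, 2.29 and 2.35 in ageing (mean 2.71 ± 0.67, SD, n = 3 arrays). All 3 arrays were high, opposite in sign to its ligand Slit1. In 3xTG over WT Robo1 lay at 3.96 and 0.98 at 3 months and at 3.45 on the single 12-month array that lists it. Each listed value was above the array median, but the ageing and 3-month values divide by RNA of the same WT mice of 3 months. Robo2, another Slit receptor, lay at -4.15 and 0.04 in ageing, at -4.40 and -2.29 in 3xTG over WT at 3 months, and at 0.22 and -0.61 at 12 months. Both its 3-month arrays were low. Robo3 was listed at -2.90 on an ageing array and at -1.11 on a 3-month genotype array.

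Netrin 1 is secreted and attracts axons through Dcc or repels them through Unc5 receptors, while Ntng1 is a lipid-anchored synaptic relative that does not bind Dcc. Ntn1 lay at -0.43, -0.22 and -2.02 in 3xTG over WT at 12 months (mean -0.89 ± 0.98, SD, n = 3 arrays), below the median on each array. Its ageing values of -2.91, 1.01 and 1.70 had both signs, and at 3 months its only value in 3xTG over WT was -0.38. The values of -2.91, -0.38 and -0.43 came from a single probe and the other Ntn1 values from another, so the ageing signs divide by probe. Ntn4 lay at 2.91 and 1.44 in ageing and at 0.28 and -2.82 at 12 months. Ntng1 lay at -0.91, -1.52 and 0.88 in ageing, at -2.25 and 4.45 in 3xTG over WT at 3 months, and at 0.66, -0.20 and -1.84 at 12 months, with both signs throughout. Unc5b lay at 2.67, -0.61 and 1.31 in ageing, at 1.58, -0.60 and 0.23 in 3xTG over WT at 3 months, and at -2.57, -1.37 and 2.64 at 12 months. It too had both signs in every comparison, though in ageing and at 3 months each array listed only 1 of its 2 probes. The values of 2.67, 1.31 and 1.58 came from a single probe, and those of -0.61, -0.60 and 0.23 from the other. The 12-month values of -2.57 and 2.64 average -4.55 with -0.59 and 4.72 with 0.55. Dcc was low on both its 12-month arrays, at -0.82 and -1.60, and had both signs in ageing. Unc5a and Unc5d lay between -2.45 and 3.98.

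**Figure D3:**
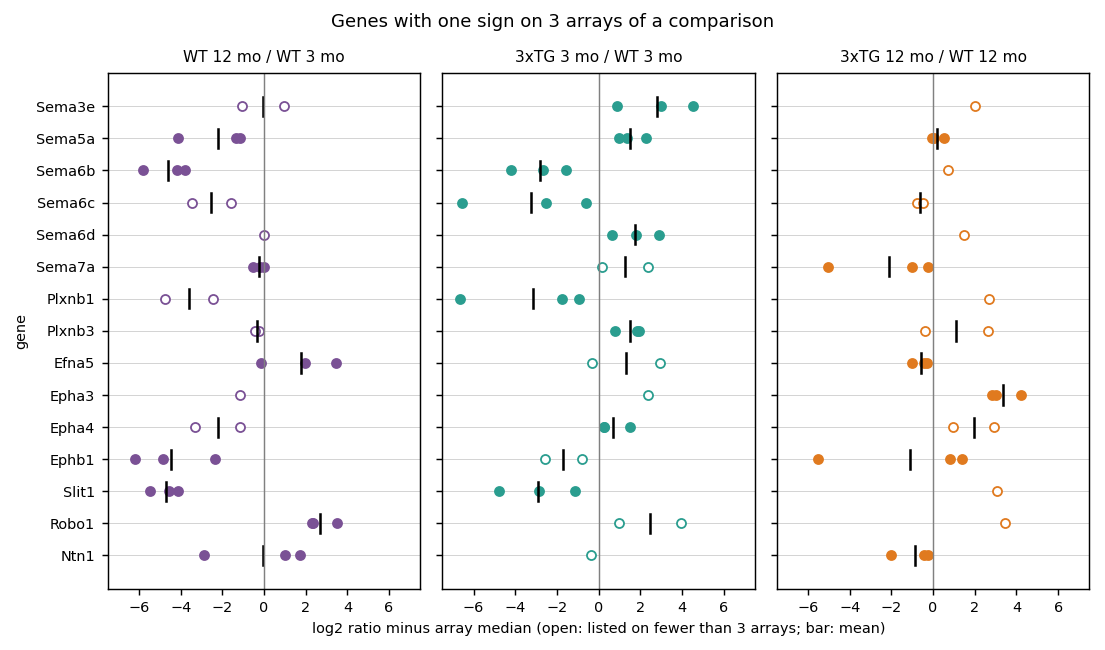
Log2 ratio minus array median (horizontal axis) on each array for the genes with one sign on all 3 arrays of at least 1 comparison. Filled points are comparisons with 3 listed arrays, open points those with fewer, and bars are means. Slit1 and Sema6b lie left of 0 in ageing and in 3xTG over WT at 3 months, Epha3 lies between 2.84 and 4.23 at 12 months, and Robo1 lies right of 0 in each panel.

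Each gene was tested in limma, with the ratios of all 9 arrays in a single fit that allows for dye and for mice shared between arrays. The 20 members listed on at least 2 arrays of every comparison were tested among 3944 genes. At an adjusted p under 0.05 (Benjamini-Hochberg over all genes), 0 members passed in any comparison, and 0 of all genes did (0%). Standard errors of the members ran from 0.77 to 2.03 log2 units, so a missed threshold does not show that a ratio was unchanged. In ageing 3 of 20 members had an unadjusted p under 0.05, all below 0, against 14.1% of all genes, 3.32% above and 10.8% below 0. The fitted value of Ephb1 was -4.09 ± 1.34 (SE, adjusted p = 0.199), that of Sema6c was -3.84 ± 1.52 (adjusted p = 0.303) and that of Sema5a was -2.45 ± 0.77 (adjusted p = 0.177), or -0.96 with its most often listed probe alone and -1.47 without ageing array 1. None of these differences is separated from the spread between arrays once all genes are counted. Epha4 and Sema4f came next, at -2.82 ± 1.25 and -3.03 ± 1.38. If the ratios were instead read as Cy5 over Cy3, Ephb1 would come to 2.22 and Epha4 to 3.42. The direction used here is that of the labels. Under it App lay above the array median with the 3xTG RNA in Cy3 (2.08, 3.99, 2.02 and 2.01) and in Cy5 (3.64 and 2.36). Read as Cy5 over Cy3, the sign of App would differ between these arrays.

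At 3 months, in 3xTG over WT, again 3 members had an unadjusted p under 0.05, all below 0, against 16.9% of all genes, 10.5% above and 6.31% below 0. Sema6c had a fitted value of -3.78 ± 1.06 (SE, adjusted p = 0.169 in limma), Sema6a of -3.24 ± 1.17 (adjusted p = 0.212) and Robo2 of -3.34 ± 1.30 (adjusted p = 0.266). Without array 3 of that comparison Sema6c came to -1.44, and without array 1 Sema6a came to -2.10 and Robo2 to -1.62. The Sema6a value joins different probes, since its -6.09 came from another probe than its -2.06 and 1.89. At 12 months 0 members had an unadjusted p under 0.05, against 18.2% of all genes, 15.4% above and 2.79% below 0. The smallest adjusted p of a member there was 0.329 in limma. Sema4f was highest, at 2.5 ± 1.56, and Sema3b lowest, at -2.98 ± 1.93, though Sema3b came to 3.90 and Sema7a to 1.69 when read as Cy5 over Cy3. The median fitted value of the 20 members was -0.13 in ageing, 0.10 at 3 months and -0.20 at 12 months, against -0.15, 0.12 and 0.48 over all genes.

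The genotype effect at 12 months was set against that at 3 months in the same fit. Again 0 members passed at the adjusted threshold (0% of all genes), and 0 had an unadjusted p under 0.05, against 9.48% of all genes, 6.95% above and 2.54% below 0. The largest member differences were 3.44 ± 2.20 (SE) for Sema4f, -3.22 ± 1.74 for Sema7a, 3.15 ± 1.83 for Robo2 and 3.14 ± 1.60 for Sema6c, and the smallest adjusted p was 0.553 in limma. The 3-month values of Sema7a and Sema6c drew in part on a probe of each gene that was not listed at 12 months. Of the ephrin-A ligands, Efna5 differed by -1.89 ± 1.51 and Efna3 by -1.90 ± 2.13.

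**Figure D4:**
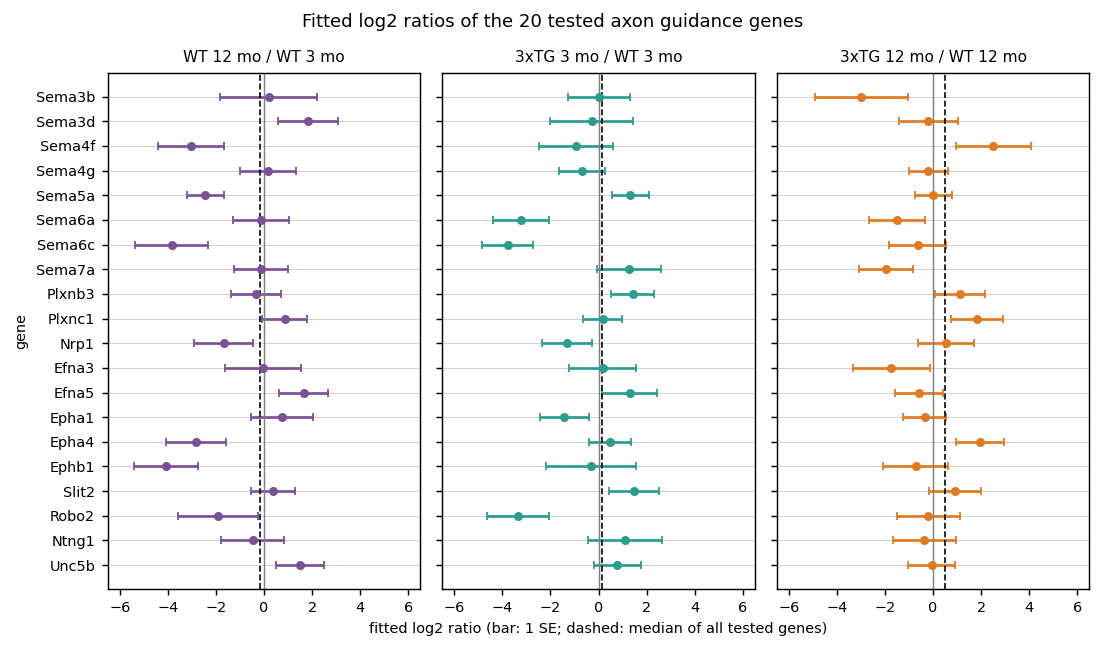
Fitted log2 ratio (horizontal axis) with 1 standard error for each of the 20 tested genes in the 3 comparisons. The dashed line is the median of all 3944 tested genes, which is -0.15 in ageing, 0.12 in 3xTG over WT at 3 months and 0.48 at 12 months. Ephb1 at -4.09 in ageing and Sema6c at -3.78 in 3xTG over WT at 3 months lie far to the left, and no gene passed the adjusted threshold.

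Slit1, Sema6b, Robo1, Epha3, Epha7 and Sema3e were too often unlisted to enter that test. With genes listed on at least 1 array of each comparison, 43 members were tested among 8658 genes, and 0 members and 0 of all genes (0%) passed at an adjusted p under 0.05 in limma. In ageing 9 members had an unadjusted p under 0.05, 2 above and 7 below 0, against 11.6% of all genes in either direction. Under the stricter filter 3.32% of all genes had such a p above and 10.8% below 0. Slit1 was fitted at -4.92 ± 0.91 (SE, adjusted p = 0.219), Sema6b at -4.66 ± 0.91 (adjusted p = 0.219) and Robo1 at 2.64 ± 0.96 (adjusted p = 0.377). The other one above 0, Sema5b at 6.12 ± 1.97 (adjusted p = 0.315), rests on a single ageing array. Their errors are small beside the fitted values, and none passed once all 8658 genes were counted. At 3 months 7 members had such a p in 3xTG over WT, 2 above and 5 below 0, against 12.9% of all genes. Under the stricter filter 10.5% of all genes had it above and 6.31% below 0. The 2 above 0 were Epha7 and Sema3e. Epha7 was fitted at 5.22 ± 1.04 with 1 residual degree of freedom (adjusted p = 0.261) and Sema3e at 2.63 ± 1.08 (adjusted p = 0.384). Those below 0 included Slit1 at -3.22 ± 0.91 (adjusted p = 0.289) and Sema6b at -2.95 ± 0.91 (adjusted p = 0.3). At 12 months 1 member had such a p, against 14.9% of all genes, namely Epha3 at 3.26 ± 0.92 (adjusted p = 0.247). For the genotype effect at 12 minus 3 months it was 2, against 7.38%: Slit1 at 5.52 ± 1.76 and Epha7 at -5.55 ± 2.08, both with an adjusted p of 0.648, and both with 1 listed array at 12 months. For Epha7 that array has one probe, at -1.88, which gave 2.11 on the only 3-month array that lists it, while the other 3-month values of 6.67 and 5.41 come from another probe.

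Of 81 other genes of guidance signalling on the array, such as exchange factors, collapsin response mediators and co-receptors, 24 were tested and 0 passed in any comparison. Their unadjusted p was under 0.05 for 0 above and 4 below 0 in ageing, 2 above and 2 below in 3xTG over WT at 3 months, and 5 above and 0 below at 12 months, against 14.1%, 16.9% and 18.2% of all genes in either direction. By direction, the shares of all genes were 3.32% above and 10.8% below 0 in ageing, 10.5% and 6.31% at 3 months, and 15.4% and 2.79% at 12 months. The median fitted value of the 24 genes was -0.75, -0.54 and 0.54 in that order, against -0.15, 0.12 and 0.48 over all genes. In ageing Vav2, a guanine nucleotide exchange factor recruited by Eph receptors, lay at -5.82, -4.96 and -2.39 and was fitted at -4.79 ± 0.90 (SE, adjusted p = 0.096 in limma). Ptprs, a receptor phosphatase that binds proteoglycans, lay at -2.80, -3.69 and -4.53 in ageing and at 1.90, 2.44 and 2.44 in 3xTG over WT at 12 months. It was low on every ageing array and high on every 12-month genotype array, with adjusted p of 0.105 and 0.161, and both sets of arrays hold RNA of the WT mice of 12 months, as numerator in ageing and as divisor at 12 months. Arhgef12, an exchange factor bound by B-type plexins, lay at 0.60, 2.36 and 2.55 in 3xTG over WT at 3 months and at 2.37, 1.89 and 2.33 at 12 months (adjusted p = 0.244 and 0.161 in limma). Src, a kinase downstream of many guidance receptors, was fitted at -2.25 ± 0.97 in 3xTG over WT at 3 months. Cntn1, an adhesion molecule of axons, was fitted at 3.77 ± 1.07 at 12 months (adjusted p = 0.158), and Cntn2, a relative, at -1.77 ± 0.82. Flrt3, a co-receptor that binds Unc5 and Robo proteins, was above the median on all 3 ageing arrays, at 1.67, 0.58 and 1.18.

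Cell type markers were counted in the same way, in the order ageing, 3xTG over WT at 3 months and 3xTG over WT at 12 months, with 48.4%, 49.4% and 57.2% of all genes above the array median. Pyramidal neuron markers had a mean above the array median in 4 of 7 genes in ageing, 6 of 7 in 3xTG over WT at 3 months and 4 of 5 at 12 months, while GABA neuron markers did so in 1 of 5, 0 of 3 and 3 of 3. Oligodendrocyte markers were above it in 1 of 6 in ageing, 2 of 4 at 3 months and 2 of 4 at 12 months, and choroid plexus markers in 0 of 3, 3 of 3 and 2 of 3. The only choroid plexus marker on all 3 arrays at 12 months lay at -3.57, -3.49 and -3.73. Endothelial markers were above in 1 of 2, 0 of 2 and 0 of 2. Granule cell markers were above in 2 of 4, 1 of 5 and 1 of 2, astrocyte markers in 2 of 5, 3 of 5 and 3 of 4, microglial markers in 4 of 5, 2 of 2 and 2 of 4, and those of oligodendrocyte precursors in 1 of 2, 1 of 3 and 3 of 3. Markers of neighbouring thalamus or neocortex were above in 1 of 2, 1 of 2 and 2 of 5, and blood markers were listed on at least 2 arrays at 12 months alone, with 0 of 1. These ratios give no level of any marker, and the part of cell composition in the values of the guidance genes was not tested. Slide numbers of the ageing arrays were all between 57 and 66, while each genotype comparison had 1 array in that range and 2 between 86 and 91. For ageing, what such a difference between slides does and what age does cannot be told apart within the comparison.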

How the data were processed

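Total RNA of one hippocampus per mouse was linearly amplified and coupled to Cy5 or to Cy3, as the labels' protocols state. The deposited table holds, for 29922 probes and 9 arrays, values read as log2 ratios of sample over reference, made by the authors. The log base, background correction, filter and normalization were not given in the sources used here. The direction follows the labels' naming of sample and reference. Arrays of opposite dye within a comparison correlated at 0.197 to 0.308 across probes. Precision is limited by the number of arrays, since no background signal is known.

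Each array was centred on its median, and probes with 1 symbol were averaged per gene. Genes listed on at least 2 of 3 arrays of each comparison (3980, of which 3944 could be fitted) were fitted by generalised least squares in limma 3.58.1 under R 4.3.3, with 3 comparison terms, a dye term and a covariance from shared mice (variance ratio 0.112, from 516 complete genes), then eBayes and Benjamini-Hochberg adjustment. The looser filter used 1 array per comparison. The fit was tested on simulated data. The p-values are over arrays that share 2 mice per group, and 3 arrays are technical replicates per the labels, so they partly measure technical spread. Every member is accounted for. Named with values on every array are the tested members and, in each direction, those listed on all 3 arrays of a comparison with one sign. Of other pathway genes, up to 3 of smallest p in each direction were eligible, and not all of these are reported here. Members and lists were chosen with earlier results of these data known. The alternatives, 21 in number, covered centring, direction, dye, covariance, slide range, filters, probe choice, replicate block and leaving out single arrays.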

Additional observations from a re-analysis of the deposited data

How the results depend on the processing

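Under each of 21 alternatives 0 members passed the adjusted threshold. Of 1179 fitted member values under them, 138 changed sign, 8 of these by more than the standard error in both fits. The 8 all arose when the ratios were read as Cy5 over Cy3: in ageing Efna5 at -1.59, Epha4 at 3.42, Ephb1 at 2.22 and Nrp1 at 1.61, and in 3xTG over WT at 12 months Plxnb3 at -1.52, Plxnc1 at -1.53, Sema3b at 3.90 and Sema7a at 1.69. The direction used here is that of the labels. Read as Cy5 over Cy3, App would change sign between arrays of opposite dye in each genotype comparison.

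The count of all genes past the threshold was 0 in each contrast. It became 35 in ageing and 23 in 3xTG over WT at 3 months when arrays were treated as independent, 58 and 22 without a dye term, and 17, 27 and (at 12 months) 20 when genes had to be listed on all 3 arrays of each comparison, which tests fewer genes. No member was among them.

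The median of the tested members minus that of all tested genes was 0.02 in ageing (-0.27 with the slide range as a term, -0.41 with the probe listed on most arrays), -0.03 at 3 months (0.45 with genes listed on all 3 arrays, -0.83 with the probe listed on most arrays), -0.68 at 12 months (0.31 read as Cy5 over Cy3, -1.22 with the probe listed on most arrays) and -0.51 for 12 minus 3 months (-1.18 with genes listed on all 3 arrays). The cause was not tested. Leaving out 1 array at a time gave -0.19 to 0.41 in ageing (highest without array 2), -0.56 to 0.17 at 3 months (lowest without array 2), -0.99 to -0.50 at 12 months, and -0.57 to 0.33 for the difference (0.18 without array 3 of 3 months, 0.33 without array 3 of 12 months), and every count stayed at 0.

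Same-numbered arrays of different comparisons did not deviate together (correlations of -0.04 to 0.05 over genes, against -0.05 to 0.05 for other pairs). Arrays known to share a mouse were also near 0, such as ageing array 1 and array 2 of 12 months, at -0.005. The check therefore cannot show whether the numbers pair the arrays. With the replicate number as a block, 0 genes passed, and the member median minus that of all genes was -0.47 in ageing, 0.04 at 3 months, -0.80 at 12 months and -0.46 for the difference.

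Small ratios are unlisted, most members lack values on some arrays, and only 2 mice stand behind each group, so ratios near 1 were not measurable here.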
